A study of Mus musculus with 4 samples.

Results

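The genes described here are the axon guidance ligands and receptors of mouse Neuro-2a (N2a) cells: the semaphorins of classes 3 to 7 with their plexin and neuropilin receptors, the ephrins with the Eph receptors, the Slits with the Robos, and the netrins with Dcc and the Unc5 receptors. They were chosen by gene symbol, with no measured value in the rule, which gave 70 entries of the 22667 genes in the expression table. Earlier results of these data were known when the set was chosen. The 70 entries carry 69 symbols, because Efna5 is listed under 2 Ensembl identifiers, of which 1 had no read. A minimum of 75 reads summed over the 4 libraries left 42 members to compare, of 12497 genes in all. Of the other 28, 21 had a read and 7 had none. At that limit, Efna1 was just inside with 112 reads and Epha10 just outside with 63.

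N2a is an established mouse neuroblastoma line. All cells were transfected for 48 h, either with a pool of non-targeting control siRNAs (siControl) or with an siRNA against Arglu1 (siArglu1). For the latter the authors' methods name a single sequence. Arglu1 encodes an arginine- and glutamate-rich protein that acts as a coactivator of the glucocorticoid receptor and in pre-mRNA splicing. A treatment of 4 h followed, with vehicle (Veh, ethanol) or with the synthetic glucocorticoid dexamethasone (Dex) at 100 nM. Each of the 4 combinations of siRNA and treatment was sequenced as 1 library of poly(A)-selected RNA, for which 3 cultures had been combined, so that no difference below has a replicate of its own. Where 4 values of a gene stand in a row without other labels, they are those of siControl cells (Veh, then Dex) followed by those of siArglu1 cells (Veh, then Dex). The knockdown was therefore read in both the vehicle pair and the Dex pair, which share no library. A gene was said to rise or fall with knockdown at a log2 ratio of 0.81 or more in either direction, and with Dex at 1 or more. These are rules of size and not tests. The 95% intervals of ratios given below cover counting error only.

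The libraries held between 66074574 and 86541444 reads on genes, and the members took between 0.154% and 0.195% of them. Arglu1 itself fell from 10165 to 2637 reads in vehicle and from 11825 to 3254 in Dex, that is, to 26.4% (25.2 to 27.5%) and 22.5% (21.7 to 23.4%) of its scaled control level. Markers of sympathetic neuroblastoma cells were present, with Hand2, Chga and Tubb3 among those that could be compared. The marker lists of glia, fibroblasts, endothelium and immune cells each summed to at most 2.24 cRPKM in a library. Of 6 endothelial markers 3 could be compared, and Pecam1 (204, 193, 95 and 111 reads) and Vwf (367, 381, 145 and 204 reads) fell in both pairs, so that this list summed to 1.69 and 1.60 cRPKM in the siControl libraries and 0.79 and 0.76 in the siArglu1 libraries, with Kdr and Cldn5 at 0 reads throughout. Of 7 smooth muscle markers, 4 (Acta2, Actg2, Cnn1 and Myh11) were higher in both siArglu1 libraries, and the summed level of the list was 7.61 and 7.10 cRPKM in the siControl libraries against 106 and 96.6 in the siArglu1 libraries, with Myocd at 0 reads throughout. The part of either list in the changes described below was not tested. In such bulk RNA, fewer cells that express a gene and less RNA per cell cannot be told apart.

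Guidance cues steer growing axons and migrating cells by attracting or repelling them. Secreted class 3 semaphorins bind neuropilins, which have no signalling domain of their own and rely on plexins, whereas membrane-bound semaphorins bind plexins directly. Ephrins are membrane-bound ligands of the Eph receptor tyrosine kinases and can also signal back into the cell that carries them. Slits are large secreted repellents that act on Robo receptors, and netrins attract through Dcc and repel through Unc5 receptors. Most of these receptors act on small GTPases and the actin cytoskeleton. Many of the same genes are expressed in neural crest and sympathetic cells, the lineage from which neuroblastoma arises.

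The first question was which of these systems the cells expressed. Levels are given as cRPKM, the reads per kilobase of mappable transcript scaled to library size by the authors, and can be compared between genes. Of the 42 members, 28 reached 1 cRPKM in at least 1 library and 12 reached 10 cRPKM in siControl Veh. The highest was Unc5b, a netrin receptor, at 37.8 cRPKM (Veh) and 34.3 (Dex) in siControl cells and 42.8 (Veh) and 50.5 (Dex) in siArglu1 cells. Unc5c followed in its family at 17.0, 17.2, 11.0 and 12.8 cRPKM, and Unc5a at 8.95, 8.95, 6.61 and 8.06 cRPKM. Unc5d had 8 reads in all libraries together, and Dcc had none. Among the ligands of these receptors, Ntn3 alone could be compared, at 3.32 to 3.88 cRPKM with 1136 to 1612 reads, and Ntn1 had 50 reads in all. Among the netrins, Dcc and the Unc5 genes, reads thus fell mainly on Unc5 receptors. Neogenin (Neo1) lies outside the symbol rule and is counted below with other guidance systems. It stood at 22.5 (Veh) and 21.4 (Dex) cRPKM in siControl cells and 14.1 (Veh) and 16.1 (Dex) in siArglu1 cells.

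**Figure D1:**
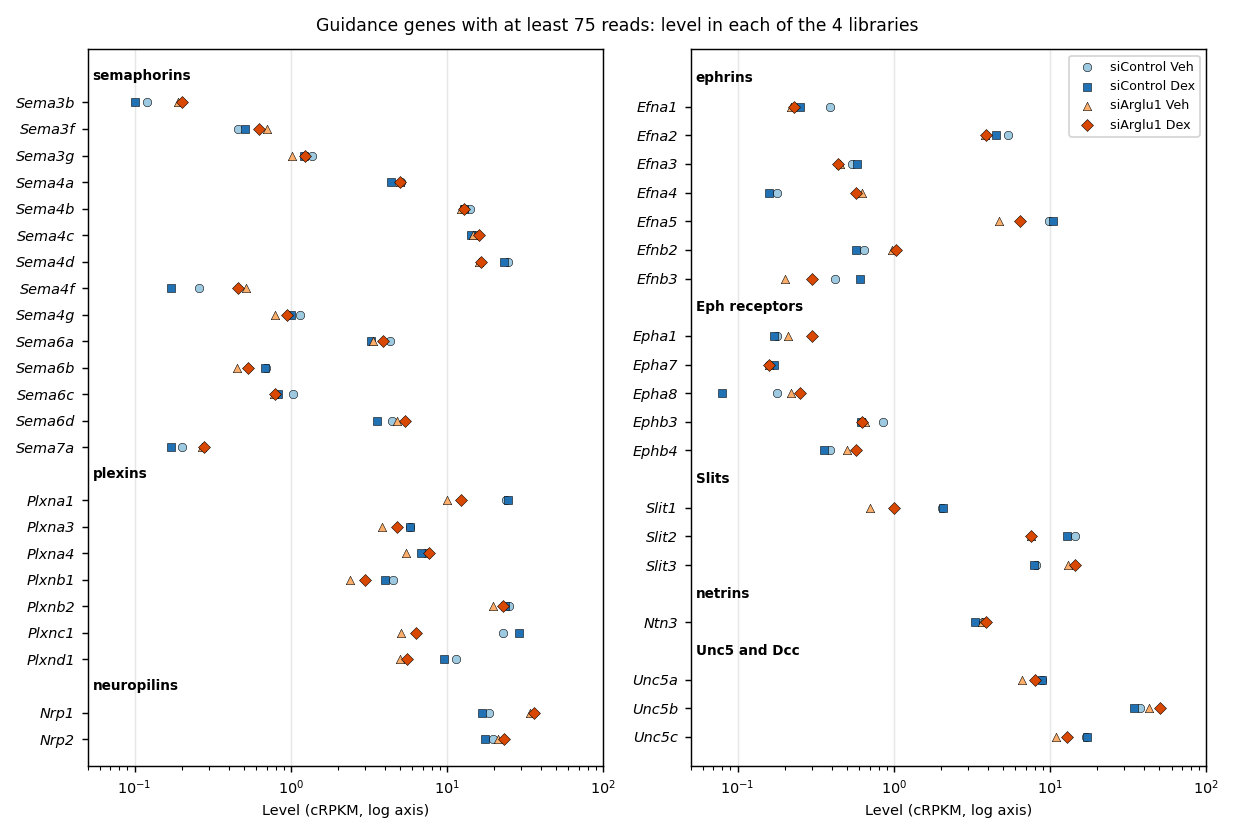
Level of the 42 guidance genes with at least 75 reads, in cRPKM on a log axis, by family; each point is 1 library, and there are no error bars because each group is 1 library. In siControl Veh, 4 of the 7 plexins, both neuropilins, Unc5b, Unc5c, Slit2 and 3 class 4 semaphorins lie above 10 cRPKM, whereas all Eph receptors lie below 1 cRPKM; the siArglu1 points (orange) of Plxnc1, Plxna1 and Slit1 lie left of the siControl points (blue), and those of Nrp1, Slit3 and Efna4 lie right of them.

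Plexins were the most abundant receptor family, at a summed 101 cRPKM in siControl Veh. Plxnb2, a receptor of class 4 semaphorins, was its highest member at 25 cRPKM in siControl Veh, and had 10454 reads (Veh) and 10610 (Dex) in siControl cells and 8316 (Veh) and 12517 (Dex) in siArglu1 cells. Plxna1 (24 cRPKM) and Plxnc1 (22.8 cRPKM) were close to it, while Plxna2 and Plxnb3 had 5 and 12 reads in all. Both neuropilins were abundant, Nrp2 at 19.7 and Nrp1 at 18.7 cRPKM in siControl Veh. Their class 3 ligands were not: Sema3g was the highest at 1.36 cRPKM, Sema3f reached 0.46, Sema3b 0.12, and Sema3a, the classical Nrp1 ligand, had 9 reads in all. The semaphorins that were abundant belonged to class 4, with Sema4d at 24.5, Sema4c at 15.4 and Sema4b at 14.0 cRPKM in siControl Veh. Sema4d is a ligand of Plxnb1, which stood at 4.49 cRPKM. Sema7a, the ligand of Plxnc1, was at 0.20 cRPKM.

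The ephrin and Slit systems were likewise read mainly from 1 side. Efna5, a glycolipid-anchored ephrin, led the ephrins at 9.91 cRPKM in siControl Veh and Efna2 followed at 5.36, whereas the highest of the 14 Eph receptors, Ephb3, stood at 0.85 cRPKM with 231, 180, 178 and 224 reads. Only 5 Eph receptors passed the minimum of reads and Epha4, Epha5 and Epha6 had no read. All 3 Slits were compared, Slit2 at 14.5, Slit3 at 8.19 and Slit1 at 2.04 cRPKM, but no Robo was: Robo2 had 12 reads in all, Robo3 10, Robo1 3 and Robo4 none. A cRPKM near 0 at this depth is a low level of RNA in the pool and not a statement on protein.

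The knockdown question was which guidance genes differed between siArglu1 and siControl cells. In vehicle, 3 of 42 members rose and 8 fell, together 26.2% of the members, where 15.8% of all genes passed (7% higher and 8.77% lower). In Dex, 7 rose and 4 fell, again 26.2%, where 12.1% of all genes passed (6.19% higher and 5.93% lower). In both pairs and in the same direction 3 rose (Sema4f, Nrp1 and Efna4) and 4 fell (Plxna1, Plxnc1, Efnb3 and Slit1), 16.7% of the members where 9.89% of all genes passed (4.83% higher and 5.07% lower). The sign of the ratio was the same in both pairs for 35 of 42 members (83.3%), and for 86.4% of all genes. The additive edgeR quasi-likelihood model, which takes the vehicle and Dex pairs as repeats of the knockdown and rests on 1 residual degree of freedom, called 14 members higher and 15 lower at a Benjamini-Hochberg adjusted p of 0.05, where it called 61.6% of all genes.

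**Figure D2:**
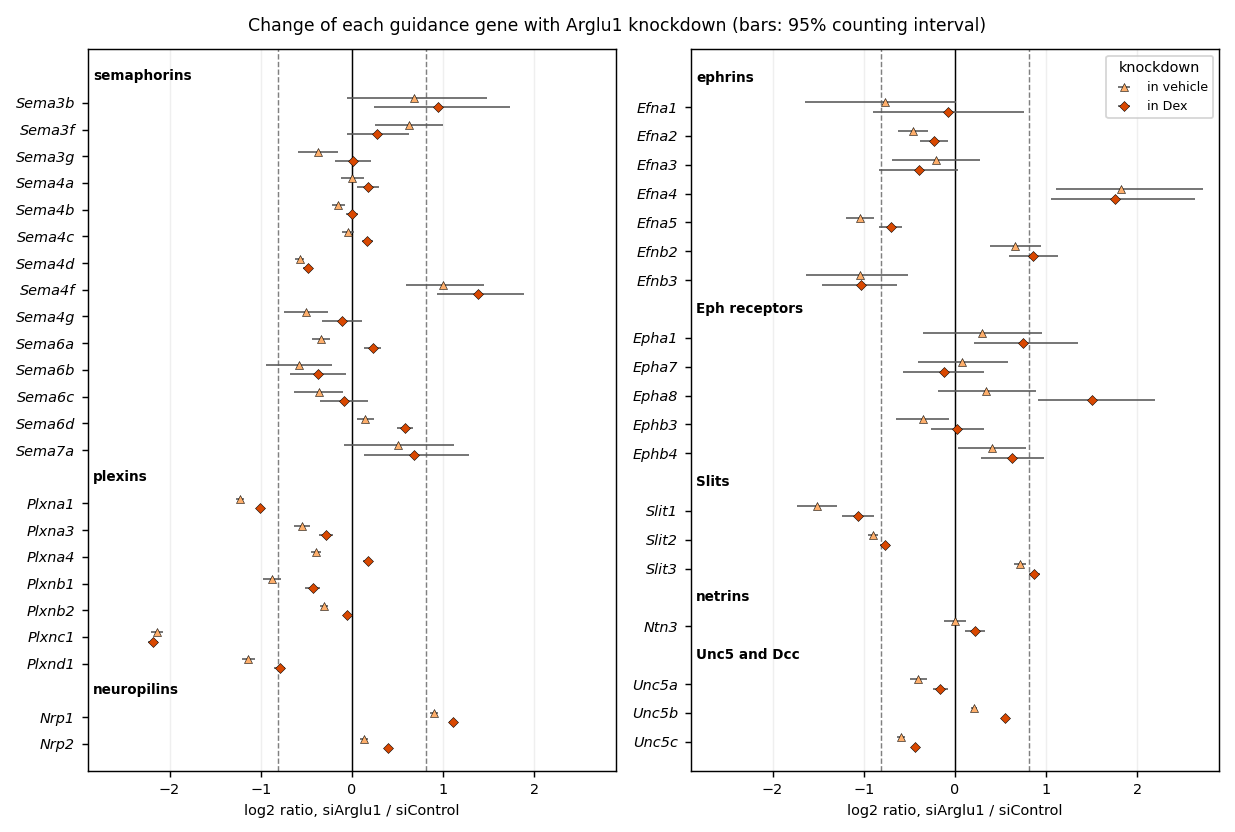
log2 ratio of siArglu1 over siControl for the 42 guidance genes in vehicle (light triangles) and in Dex (dark diamonds), by family; bars are exact 95% counting intervals and dashed lines mark 0.81 in either direction. All 7 plexins lie left of 0 in vehicle, both neuropilins lie right of 0 in both pairs, and Slit1 and Slit2 lie left while Slit3 lies right.

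Plxnc1, the plexin that binds Sema7a, had the largest change of the 42 members compared. Its reads were 10526 in siControl Veh and 14318 in siControl Dex, against 2352 in siArglu1 Veh and 3849 in siArglu1 Dex. Both siArglu1 libraries were far below both siControl libraries. The log2 ratio was -2.14 (-2.20 to -2.08) in vehicle and -2.18 (-2.24 to -2.13) in Dex, so that 22.7% of the control level was left in vehicle and 22% in Dex, and the ratios of the 2 pairs differed by -0.04 (-0.13 to 0.04). The gene (ENSMUSG00000074785) lies on the minus strand of chr10:94790866-94944835 (GRCm38).

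Plxna1, a signalling partner of neuropilins, fell as well, from 14232 to 5970 reads in vehicle and from 15653 to 9506 in Dex. Its log2 ratio was -1.23 (-1.27 to -1.19) in vehicle and -1.01 (-1.05 to -0.97) in Dex. The gene (ENSMUSG00000030084) lies on the minus strand of chr6:89316314-89362620 (GRCm38), and 10.7% of its annotated exonic bases are shared with an exon on the other strand, a share in which reads counted without strand could not be told apart. Plxnd1, a receptor that binds Sema3e without a neuropilin, fell in vehicle (-1.14, from 5151 to 2303 reads) and had a ratio of -0.79 in Dex. Plxnb1, the Sema4d receptor, likewise fell in vehicle alone (-0.88) and had a ratio of -0.43 in Dex. The other plexins did not reach the threshold in either pair: Plxna3 was at -0.55 and -0.29, Plxnb2 at -0.31 and -0.05, and Plxna4 at -0.39 in vehicle and 0.17 in Dex. The family median was -0.88 in vehicle and -0.43 in Dex, and the summed level went from 101 to 51.6 cRPKM in vehicle; with Dex it was 62.5 cRPKM in siArglu1 cells.

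Nrp1, the Sema3a receptor that also binds vascular endothelial growth factor, moved the other way. It had 7189 reads (Veh) and 6922 (Dex) in siControl cells and 13208 (Veh) and 18240 (Dex) in siArglu1 cells. Both siArglu1 values lay above both siControl values, with log2 ratios of 0.90 (0.86 to 0.94) in vehicle and 1.11 (1.07 to 1.15) in Dex. The gene (ENSMUSG00000025810) lies on the plus strand of chr8:128358604-128503363 (GRCm38). Nrp2, which prefers Sema3f, had 8113 and 7822 reads in the siControl libraries and 8785 and 12590 in the siArglu1 libraries, that is, ratios of 0.14 (0.09 to 0.18) and 0.40 (0.36 to 0.44), below the threshold. In siControl Veh the neuropilins summed to 38.4 cRPKM against 101 for the plexins, and in siArglu1 Veh to 55.2 against 51.6. In Dex they went from 34.3 against 103.03 in siControl to 59.5 against 62.5 in siArglu1, and so stayed below the plexins.

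Among the semaphorins, Sema4f, a membrane-bound class 4 member, rose in both pairs, from 70 to 139 reads in vehicle and from 50 to 161 in Dex. Its log2 ratio was 1.003 (0.59 to 1.45) in vehicle and 1.38 (0.93 to 1.89) in Dex, at a level of no more than 0.52 cRPKM. The gene (ENSMUSG00000000627) lies on the minus strand of chr6:82911885-82939769 (GRCm38). Sema3b, a secreted class 3 semaphorin, rose in Dex alone (0.94, from 23 to 55 reads) with a ratio of 0.68 in vehicle. The other 12 semaphorins passed in neither pair. Sema4d, the most abundant of them, had 7164, 7287, 4734 and 6358 reads. Its ratios of -0.58 (-0.63 to -0.52) and -0.49 (-0.53 to -0.44) stayed under the threshold, with intervals that left out 0. Sema6a, a transmembrane semaphorin that binds class A plexins, had ratios of opposite sign, -0.34 (-0.44 to -0.24) in vehicle and 0.23 (0.14 to 0.32) in Dex.

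Of the ephrins, Efna4, a glycolipid-anchored ligand of EphA receptors, rose in both pairs. It had 18 reads in each siControl library, 65 in siArglu1 Veh and 77 in siArglu1 Dex, with log2 ratios of 1.82 (1.10 to 2.72) and 1.75 (1.05 to 2.64). The intervals are wide because of the low counts, and 10.5% of the annotated exonic bases of the gene (ENSMUSG00000028040, minus strand of chr3:89333390-89338028, GRCm38) are shared with an exon on the other strand. Efnb3, a transmembrane ephrin of the spinal cord midline, fell from 87 to 41 reads in vehicle and from 137 to 81 in Dex, ratios of -1.05 (-1.64 to -0.51) and -1.04 (-1.46 to -0.64). That gene (ENSMUSG00000003934) lies on the minus strand of chr11:69554092-69560205 (GRCm38). Efna5, the most abundant ephrin, had 1058, 1208, 506 and 904 reads. It fell in vehicle (-1.04, -1.20 to -0.89) and had a ratio of -0.71 (-0.83 to -0.58) in Dex. Efnb2, a transmembrane ephrin of arteries, rose in Dex (0.85) with a ratio of 0.66 in vehicle. Efna1, Efna2 and Efna3 had negative ratios in both pairs and passed in neither.

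The Slits did not move together. Slit1 fell in both pairs, from 675 to 233 reads in vehicle and from 737 to 431 in Dex. Its log2 ratios were -1.51 (-1.73 to -1.30) and -1.06 (-1.24 to -0.89), which left 35.1% and 47.9% of the control level. The gene (ENSMUSG00000025020) lies on the minus strand of chr19:41600257-41743665 (GRCm38). Slit2 had 7580, 7273, 4015 and 5213 reads, and fell in vehicle (-0.89, -0.95 to -0.84) with a ratio of -0.77 (-0.82 to -0.72) in Dex. Slit3 had 2803, 2900, 4528 and 6483 reads, with ratios of 0.71 (0.65 to 0.78) in vehicle and 0.87 (0.81 to 0.94) in Dex, and so rose in Dex alone. In the siControl libraries Slit2 stood above Slit3 (14.5 and 8.19 cRPKM in vehicle), and in the siArglu1 libraries Slit3 stood above Slit2 (13.1 and 7.59 cRPKM in vehicle, 14.5 and 7.59 in Dex).

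The netrin side changed less. Ntn3, which binds both Dcc and Unc5 receptors, had 1187, 1136, 1169 and 1612 reads, with ratios of 0.00 (-0.12 to 0.12) and 0.22 (0.11 to 0.33). Unc5b had 14433, 14135, 16465 and 25262 reads, with ratios of 0.21 (0.18 to 0.24) in vehicle and 0.55 (0.52 to 0.58) in Dex. Unc5c was lower in both siArglu1 libraries by less than the threshold, at -0.60 and -0.43. Unc5a, the remaining member of the family to be compared, was at -0.40 and -0.16. The Eph receptors were too low for most ratios to be precise. Of the 5 compared, 4 had a positive ratio in vehicle and 4 in Dex, with a family median of 0.29 and 0.63. Ephb4 was at 0.40 (0.03 to 0.78) in vehicle and 0.63 (0.29 to 0.98) in Dex, under the threshold. Ephb3 was at -0.35 (-0.64 to -0.07) in vehicle and 0.03 (-0.26 to 0.32) in Dex, and Epha8 is described with Dex below.

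Knockdown ratios also varied with transcript length. In vehicle the median ratio was -0.32 over the 42 members and 0.00 over all genes, and in Dex it was 0.01 over the members and 0.00 over all genes. The members are long genes, with a median mappable length of 4456 nt against 2708 nt over all genes, and over all genes Spearman's rank correlation between length and ratio was -0.40 in vehicle and -0.23 in Dex, given here as a description across genes of the same pairs of libraries. With the trend on length removed over all genes, the median of the members was 0.00 in vehicle and 0.10 in Dex, and 5 rose and 5 fell in vehicle, where 13.1% of all genes passed (6.01% higher and 7.1% lower). In Dex 7 rose and 4 fell, where 11.6% of all genes passed (5.99% higher and 5.6% lower). Plxnc1 (-1.75 and -1.99), Slit1 (-1.26 and -0.94), Efnb3, Nrp1 (1.22 and 1.26), Sema4f and Efna4 passed in both pairs in this form too, as did Efna5, Efnb2 and Slit3. Plxna1 (-0.74 and -0.76), Plxnd1 (-0.75 in vehicle), Plxnb1 (-0.40 in vehicle) and Slit2 (-0.45 in vehicle) did not. The median of the members in vehicle and the falls of these 4 genes thus depend on whether length is taken into account.

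**Figure D3:**
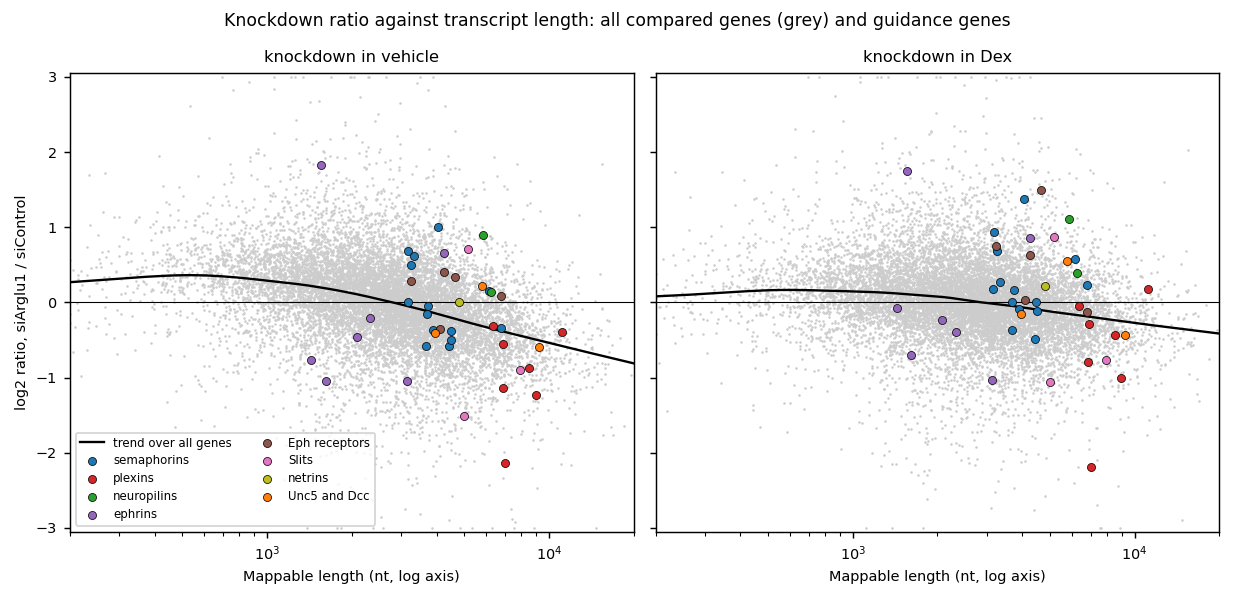
Knockdown log2 ratio of siArglu1 over siControl against mappable length on a log axis, in vehicle (left) and in Dex (right); grey points are all genes compared, with ratios beyond 3 drawn at the edge, the black line is the trend over all genes and coloured points are the 42 guidance genes by family. The trend falls with length, more in vehicle than in Dex, and Plxnc1 lies below it in both panels.

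The difference between the 2 knockdown pairs had a direction among the members. In 37 of 42 (88.1%) the ratio was higher in the Dex pair than in the vehicle pair, against 51.6% of all genes, with a median difference of 0.24 over the members and 0.01 over all genes. With the length trend removed, the median difference over the members was 0.14. Counting intervals of this difference left out 0 for 25 of 42 members, where they did for 47.2% of all genes. Among the abundant ones, it was 0.57 (0.49 to 0.64) for Plxna4, 0.57 (0.43 to 0.70) for Sema6a and 0.34 (0.29 to 0.38) for Unc5b. With the length trend removed, the difference was smaller for each, at 0.28 for Plxna4, 0.37 for Sema6a and 0.17 for Unc5b. With 1 library per group, an interaction of knockdown and Dex and the particular pools of these 4 libraries cannot be told apart.

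The Dex question was which guidance genes differed between Dex and vehicle within each siRNA. In siControl cells 1 of 42 members passed the threshold, where 0.464% of all genes did (0.32% higher and 0.144% lower), and in siArglu1 cells 0 did, where 0.392% of all genes did (0.328% higher and 0.064% lower). The 1 was Epha8, an EphA receptor tyrosine kinase, with 55 reads (Veh) and 28 (Dex) in siControl cells and 69 (Veh) and 99 (Dex) in siArglu1 cells. The siControl Dex library was thus the low one. In siControl cells the log2 ratio of Dex over Veh was -1.05 (-1.78 to -0.39), whereas siArglu1 cells had one of 0.11 (-0.35 to 0.58), and the knockdown ratio was 0.34 (-0.18 to 0.89) in vehicle and 1.501 (0.92 to 2.19) in Dex. Most members had smaller ratios, with a median of -0.13 in siControl and 0.11 in siArglu1. Plxnc1 had positive ratios with Dex in both siRNAs, 0.34 (0.31 to 0.38) and 0.30 (0.23 to 0.37). It was the single member called for Dex by the additive edgeR quasi-likelihood model (Benjamini-Hochberg adjusted p = 0.022), which called 1.04% of all genes. Efnb3 had ratios of 0.55 (0.16 to 0.96) and 0.56 (0.01 to 1.15).

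Splicing of the members was read as PSI, the share of a gene's transcripts, in percent, in which an exon is kept or a splice site is used. The splicing tables listed 434 events in members, of which 158 in 23 members had a PSI in all libraries and enough coverage to compare: 90 cassette exons, 2 microexons, 38 alternative 3′ splice sites and 28 alternative 5′ splice sites. Of the cassette exons, 56 were above 95 in every library, 3 were below 5 in every library, and 31 had a value between these limits in at least 1. A ΔPSI of at least 15 was reached by 5 of 158 events for knockdown in vehicle, where 1.96% of all events passed, and by 2 for knockdown in Dex, where 1.52% passed. For Dex in siControl there were 2, where 0.719% passed, and for Dex in siArglu1 5, where 0.948% passed. No event of a member reached 15 in the same direction in both knockdown pairs, which 0.54% of all events did.

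The sequences of 6 small exons from 4 genes are printed because their inclusion is described next, and were chosen after their values were seen. They were read from GENCODE M21 transcripts (GRCm38), matched by gene and by the lengths of the exon and of both introns, 30 of 32 variable exons finding a match; capitals mark the exon and lower case the 15 transcript bases on either side. All 6 printed are wholly coding and have a length that is a multiple of 3, which holds for the length of 15 of the 32 variable exons.
Slit2 24 nt, chr5:48220967-48220990, plus strand: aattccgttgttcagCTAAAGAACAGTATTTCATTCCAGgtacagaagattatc
Slit2 27 nt, chr5:48263641-48263667, plus strand: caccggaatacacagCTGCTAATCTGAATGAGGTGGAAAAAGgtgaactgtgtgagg
Slit2 12 nt, chr5:48191003-48191014, plus strand: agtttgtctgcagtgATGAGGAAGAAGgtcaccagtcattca
Unc5c 57 nt, chr3:141786857-141786913, plus strand: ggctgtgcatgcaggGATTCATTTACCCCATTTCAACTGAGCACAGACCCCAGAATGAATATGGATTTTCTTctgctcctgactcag
Unc5b 33 nt, chr10:60777185-60777217, minus strand: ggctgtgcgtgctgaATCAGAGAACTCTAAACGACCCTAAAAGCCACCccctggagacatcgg
Nrp2 51 nt, chr1:62812534-62812584, plus strand: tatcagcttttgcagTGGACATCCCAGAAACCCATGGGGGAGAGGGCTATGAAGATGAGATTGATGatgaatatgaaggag

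The 24 nt exon of Slit2 was the one cassette exon of a member to pass for knockdown in Dex. Its PSI was 32.4 (Veh) and 33.9 (Dex) in siControl cells and 46.9 (Veh) and 56.8 (Dex) in siArglu1 cells. Both siArglu1 values were above both siControl values, with a ΔPSI of 14.5 in vehicle, just under the threshold, and 22.9 in Dex, and coverage scores of OK or better in all libraries. The other 2 small exons of Slit2 moved the opposite way and passed in neither pair. The 27 nt exon was at 14.4, 9.59, 4.00 and 4.82, and the 12 nt microexon at 99.0, 95.2, 94.1 and 88.7.

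Unc5c and Unc5b each have a small coding exon, and the transcripts share 12 of the 15 bases before these exons and 4 of the 15 after them, position by position. The 57 nt exon of Unc5c was at 16.5 and 15.1 in the siControl libraries and at 4.23 and 4.72 in the siArglu1 libraries, with a ΔPSI of -12.3 in vehicle and -10.3 in Dex. The 33 nt exon of Unc5b was at 84.1 and 88.8 in the siControl libraries and at 75.5 and 79.9 in the siArglu1 libraries, with a ΔPSI of -8.59 and -8.89. Neither reached 15. The next exon upstream in Unc5b, of 165 nt, was at 88.4 and 86.2 in the siControl libraries and 95.2 and 92.4 in the siArglu1 libraries.

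**Figure D4:**
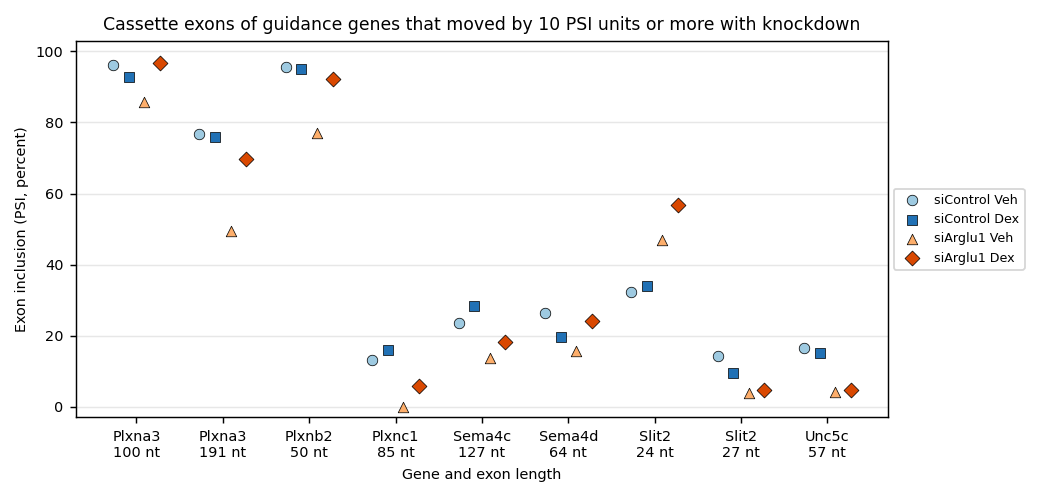
Exon inclusion (PSI, in percent) of the cassette exons of guidance genes whose ΔPSI with knockdown was at least 10 in either pair; each point is 1 library, and there are no error bars because each group is 1 library. The siArglu1 points lie above the siControl points for the 24 nt exon of Slit2 and below them for the 27 nt exon of Slit2, the 57 nt exon of Unc5c, the 85 nt exon of Plxnc1 and the 127 nt exon of Sema4c, whereas siArglu1 Veh alone stands apart for the exons of Plxna3 and Plxnb2.

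Nrp2 is known to be spliced into alternative forms. The PSI of its 51 nt exon was 55.0 (Veh) and 63.1 (Dex) in siControl cells and 56.6 (Veh) and 69.9 (Dex) in siArglu1 cells. The ΔPSI with Dex was 8.17 in siControl and 13.3 in siArglu1, below the threshold of 15, at a coverage score of SOK in all 4 libraries. An 85 nt exon of Plxnc1, among the variable exons that found no matching transcript, was at 13.3, 16.0, 0 and 5.98. A 127 nt exon of Sema4c, not wholly coding, was at 23.7, 28.3, 13.8 and 18.1.

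The events past the threshold for knockdown in vehicle were a 191 nt exon of Plxna3 (76.9 in siControl Veh and 49.6 in siArglu1 Veh), a 50 nt exon of Plxnb2 that is not wholly coding (95.6 and 76.9), an alternative 3′ splice site of 3 nt in Unc5a (24.7 and 9.52), an alternative 5′ splice site of 306 nt in Sema4c (74.9 and 58.3) and an alternative 5′ splice site of 4 nt in Plxnb1 (32.1 and 0). The last was also the second event past the threshold for knockdown in Dex, with the opposite sign (ΔPSI of 22.2), and 1 of the 2 for Dex in siControl (-21.0), from 24 to 36 junction reads in the libraries of these pairs. Its siArglu1 Veh value came from 3 junction reads, that of Sema4c from 7 and that of Unc5a from 42. For Plxna3, Sema4c and Plxnb1 the coverage score in siArglu1 Veh was N, the lowest class, which in the splice-site tables holds 0 to 9 junction reads. In Dex the same events of Plxna3, Plxnb2 and Sema4c had a ΔPSI of -6.05, -2.77 and -4.78.

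With Dex, the events past the threshold whose coverage score was at least OK on both sides of the pair were those of Unc5a and Plxnb2 in siArglu1, and the others had lower scores. The 3 nt site of Unc5a went from 9.52 to 26.9 in siArglu1 (42 and 78 junction reads) and from 24.7 to 15.6 in siControl (97 and 77). The 50 nt exon of Plxnb2 went from 76.9 to 92.2 in siArglu1 and from 95.6 to 95 in siControl. The lowest value of each was that of siArglu1 Veh, which stood apart from the other 3 for the exon of Plxnb2 but not for the site of Unc5a.

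Downstream of the receptors, 62 gene entries for intracellular effectors (small GTPases, their exchange factors and activating proteins, kinases and actin regulators) were compared. In vehicle 1 rose and 12 fell, where 15.8% of all genes passed (7% higher and 8.77% lower). In Dex 1 rose and 9 fell, where 12.1% passed (6.19% higher and 5.93% lower). Without the length trend 1 rose and 8 fell in vehicle, where 13.1% of all genes passed (6.01% higher and 7.1% lower). In Dex 1 rose and 7 fell in that form, where 11.6% passed (5.99% higher and 5.6% lower). Rac1, a GTPase that drives the actin sheets of growth cones, was the one that rose, from 9977 to 39569 reads in vehicle and from 11308 to 48093 in Dex, ratios of 2.01 (1.98 to 2.04) and 1.80 (1.77 to 1.83). The falls with the largest smaller ratio were Rnd2, a small GTPase that takes part in neuronal migration (-1.87 and -1.97), Sos1, an exchange factor for Ras and Rac (-1.74 and -1.55), Arhgef11, a guanine nucleotide exchange factor that binds class B plexins (-2.01 and -1.40), Srgap3, a Slit-Robo GTPase-activating protein (-1.45 and -1.13), and Cfl1, the actin-severing protein cofilin (-1.03 and -1.33). The median of the list was -0.27 in vehicle and -0.14 in Dex, and without the length trend -0.15 and -0.01.

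Of 24 genes of other guidance systems that were compared, 3 rose and 5 fell in vehicle, where 15.8% of all genes passed, and 4 rose and 1 fell in Dex, where 12.1% did. Without the length trend, 5 rose and 2 fell in vehicle, where 13.1% of all genes passed. In Dex 4 rose and 1 fell in that form, where 11.6% did. The median of the list was -0.02 in vehicle and 0.32 in Dex, and without the length trend 0.35 and 0.49. Wnt5a, a Wnt ligand that repels cortical axons, rose by 1.56 and 1.76, Flrt3, a membrane protein that binds Unc5 receptors, by 1.40 and 1.55, and Rgmb, a repulsive guidance molecule that binds neogenin, by 0.94 and 1.05. Ptch1, the Hedgehog receptor, fell in both pairs (-1.75 and -1.09). Flrt3 stood at 1.46 cRPKM in siControl Veh and 3.76 in siArglu1 Veh, beside Ntn3 at 3.32 to 3.88 cRPKM in all libraries.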

How the data were processed

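RNA-seq of N2a cells was analysed from the tables the authors deposited. The authors deposited raw counts of reads per gene and library, and RPKM corrected for mappability (cRPKM), scaled by the authors to library size and rounded; a blank count was taken as 0. The deposited splicing tables give PSI as a percent per library with a coverage score and, for splice sites, junction reads. Bowtie and build mm9 stand in the submitters' processing notes. The sources used here give no version, parameters or strand setting. The 2 columns of the authors' own ratios of Dex over Veh were not used.

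Counts were scaled with TMM factors of edgeR 4.0.16 (R 4.3.3) over the whole table and turned into log2 CPM (prior count 1). Genes entered a comparison with a sum of 75 reads or more. The thresholds were 0.81 (knockdown) and 1 (Dex) on the log2 scale and 15 for ΔPSI; an event was compared if no library lacked its PSI and 3 or more were scored LOW or higher. Intervals at the 95% level are exact (Clopper-Pearson, conditional on the sum of the reads of both libraries) and cover counting error only. Alternatives included edgeR's quasi-likelihood fit with additive terms for siRNA and treatment, and the size factors of DESeq2 1.42.0. The length trend was removed with a lowess of span 0.3 (statsmodels 0.14.6). Mappable length was computed from reads and cRPKM. The scripts were tested on simulated data. Depth was between 66074574 and 86541444 reads on genes.

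The members and lists were chosen with earlier results of these data known. Full values were given for members past the threshold in both knockdown pairs or for Dex and for the most abundant member of each family; members past it in 1 pair were named with their ratios. Other members were named, and exons printed, as examples chosen after their values were seen.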

Additional observations from a re-analysis of the deposited data

Results flagged for a closer look

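Each result here moved past the threshold of size in at least 1 pair of libraries and had the opposite sign in the other pair. The difference between the pairs was not tested, since each group is 1 library. The log2 ratio of Dex over Veh for Epha8 was -1.05 in siControl and 0.11 in siArglu1, from 28 to 99 reads a library. For knockdown, the ΔPSI of the 3 nt alternative 3′ splice site of Unc5a was -15.2 in vehicle and 11.3 in Dex, and that of the 4 nt alternative 5′ splice site of Plxnb1 was -32.1 in vehicle and 22.2 in Dex.

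For Dex, the ΔPSI of the same site of Unc5a was -9.16 in siControl and 17.4 in siArglu1, and that of the Plxnb1 site was -21.0 and 33.3. The 191 nt exon of Plxna3 had a ΔPSI of -0.97 in siControl and 20.3 in siArglu1, and the 50 nt exon of Plxnb2 had -0.56 and 15.3. The Plxnb1 site passed the threshold in each of the 4 pairs. In siArglu1 Veh it had 3 junction reads, and the Plxna3 exon had a coverage score of N.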

How the results depend on the processing

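No paired analysis was possible because no group has a second replicate (the additive edgeR model has treatment as a term), and no library could be left out for the same reason. Of 93 recomputed values for counts of members, events and effectors and for the medians, 57 stayed within 1.5 times the main count or within 0.1 on the log2 scale. Counts were compared as totals, without regard to direction. The 3 rises and 8 falls of members in vehicle became 5 and 5 with the length trend removed, and count as kept. So does the count of 1 member for Dex in siControl, although the gene differs. It was Epha8, which was lower, in the main count and Plxnc1, which was higher, in the additive edgeR model. DESeq2 size factors and total reads moved none of them beyond these limits, and no scaling moved the median of all genes by 0.1. With the length trend removed, the median of the members in vehicle turned from -0.32 to 0.0027. Without a minimum of reads it was -0.19, and 18 and 19 members passed for knockdown in vehicle and Dex and 7 and 4 for Dex in siControl and siArglu1. With a minimum of 400 reads, 7 members passed for knockdown in Dex. Epha8 was lost for Dex in siControl, leaving 0, with that minimum, with cRPKM and with a prior count of 5. At a threshold of 1.5, 3 members passed in vehicle, 3 in Dex and 2 in both, and 5 and 3 effectors. The additive edgeR model called 29 members and 43 effectors for knockdown and 1 member for Dex. For splicing, in the order knockdown in vehicle, knockdown in Dex, Dex in siControl and Dex in siArglu1, 2, 1, 0 and 2 events passed when each library had to be scored OK or higher, 32, 25, 15 and 31 with no minimum of the score, 2, 0, 0 and 1 at a ΔPSI of 25, and 11, 6, 2 and 10 at a ΔPSI of 10. Of 202 recomputed ratios of the 15 members past the threshold for knockdown in either pair, none changed sign, 9 fell below the threshold and 3 rose above it. The cause of these shifts was not tested beyond the change of setting itself. Depth limits Epha1, Epha7, Epha8, Efna1, Efna3, Efna4, Efnb3, Sema3b and Sema7a, with fewer than 100 reads in at least 3 libraries, and the splice sites of Plxnb1 and Sema4c.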
